A study of Mus musculus with 49 samples.

Results

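Mitosis and spindle genes are described here across mouse intestinal crypt cell populations profiled by RNA sequencing. The set holds 39 genes, taken by symbol from a fixed list of mitotic cyclins, kinases, checkpoint proteins, kinetochore proteins, spindle motors, cytokinesis factors and chromosome proteins. All 39 were found among the 24062 gene symbols of the count table, and all 39 were among the 14837 genes that passed the filter on low counts and were tested. No measured value was used to choose them.

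The study profiled epithelial cells of the proximal small intestine from adult mice on a mixed B6;129 background, in 25 RNA-seq libraries that fall into 12 groups. Total counts ran from 11179085 to 27371108 per library. The question behind the design, as the labels give it, is how stem cells, progenitors and mature secretory cells differ, and what happens to some of them after injury. Levels are CPM, a gene's counts relative to the library total, scaled by TMM, which sets the libraries' scale from all genes.

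Goblet cells (2 libraries) came from wild-type mice given DBZ, a Notch inhibitor, at 48 mg/kg at 0 and 12 h and killed at 115 h, and were sorted as CD69+CD274+. Paneth cells (2 libraries) were sorted from wild-type mice as CD24 high and UEA lectin high, and enteroendocrine cells (2 libraries) as CD24 high and UEA lectin negative. Bmi1-GFP cells (3 libraries) were GFP-positive cells of Bmi-1GFP/+ mice, and 1 further library came from such mice 36 h after 10 Gy of whole-body radiation. CD274+CD69+ cells were sorted from untreated wild-type mice (control, 2 libraries) and from mice given diphtheria toxin (DT) at 50 µg/kg 4 times on alternate days (DT-treated, 2 libraries). The labels call the DT-treated mice wild type and name no toxin receptor in them.

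The progenitor groups were unsorted crypts and not purified cells. Secretory progenitor Rbpj crypts (2 libraries) came from Rbpj F/F; Villin-CRE mice given 2 mg tamoxifen 2 times daily over 2 days and killed on day 3. Secretory progenitor DBZ crypts (2 libraries) came from Atoh1 F/F mice, with no Cre labelled, given the same DBZ doses and killed at 38 h. Enterocyte progenitor crypts (2 libraries) came from Atoh1 F/F; Villin-CRE mice given 1 mg tamoxifen for 5 days and killed after 3 weeks. Villin drives Cre in the gut epithelium. Stem cells were sorted as GFP-positive from Lgr5EGFP-DTR mice (Lgr5-GFP-DTR, 2 libraries) and as GFP-high from Lgr5EGFP-IRES-CRE-ERT2 mice (Lgr5-GFP-Cre, 3 libraries), both knock-in lines that mark Lgr5-expressing crypt base cells. The Lgr5-GFP-Cre cells served as the common comparator, so the 8 comparisons against them share those 3 libraries.

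The targeted genes were read first. Atoh1, the transcription factor of secretory fate, averaged 1.61 CPM in Atoh1-deleted enterocyte progenitor crypts, against 37.3 CPM in Lgr5-GFP-Cre cells. Rbpj, the DNA-binding partner of Notch, stood at 21.0 and 28.4 CPM in Rbpj crypts, against 32.8 and 39.5 CPM in DBZ crypts and 42.8 and 43.6 CPM in enterocyte progenitor crypts, and in Lgr5-GFP-Cre cells, which are not labelled with an Rbpj deletion, at 18.4 to 24.6 CPM. Whole-gene counts do not show whether the deleted exons were still read. Cdc20, Ccna2, Aurka, Nusap1, Anln, Ect2, Kif20a, Prc1 and Tpx2 overlap another gene of the table. Ccnb1, Ccnb2 and Kif4 have a named pseudogene in the RefSeq gene annotation. Reads of all these genes may be shared. How strand was used in counting is not given in the sources used here.

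In mitosis, cyclin B and cyclin A activate the kinase CDK1, which drives condensation of chromosomes and building of the spindle. Microtubules attach to kinetochores, protein assemblies on centromeres, and a checkpoint holds anaphase until every kinetochore is attached; the anaphase-promoting complex then marks cyclin B and securin for destruction, and cytokinesis splits the cell. In the small intestine, divisions are largely confined to crypt base stem cells and the transit-amplifying progenitors above them, while mature secretory and absorptive cells are largely post-mitotic.

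Many mitotic genes carry in their promoters a cell cycle homology element, TTTGAA, which is bound by the DREAM and MuvB complexes, and CCAAT boxes bound by NF-Y. Promoter windows from RefSeq (GRCm38.p6, 250 bases before to 50 after a start listed in the table) were matched for 32 of the 39 genes, in 34 windows. That start was the outer end of the annotated gene in 18 windows, lay 1 to 50 bases inside it in 11, and lay further inside in 5 (Mki67 71 bases, Aurka 316, Ect2 375 and 399, and Kif2c 3852), so these 5 hold more of the gene itself than the others. The letters TTTGAA, on either strand, were present in 27 of 34 windows (79.4%) and in 75.9% of the 29 whose start was within 50 bases of the outer end, against 17.9% of all 32851 windows. The letters CCAAT, on either strand, were present in 79.4% of the windows and in 79.3% of those 29, against 37.4% of all windows. Both strings together were held by 70.6% of the windows, against 6.95% of all windows. By comparison, 4 E2F strings (TTTGGCGC, TTTCCCGC, TTTGCCGC and TTTCGCGC, either strand) were in 2.94% of the windows, against 2.26% of all windows. In the 76 windows of the other mitotic genes listed below, TTTGAA was in 50.0%, CCAAT in 65.8% and an E2F string in 11.8%. In the 25 windows of the G1 and S phase genes listed below, these shares were 12.0%, 76.0% and 40.0%. A high share of CCAAT was thus not particular to the 39 genes. A match of letters is a description and not evidence of binding.

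Promoters of 6 genes are printed for genes whose levels are followed below, each as the 150 bases just before the start of its window, 5′ to 3′ on the gene's strand. For Mki67 the last 71 of these bases, and for Top2a the last 10, lie inside the annotated gene. Capitals mark TTTGAA or its reverse complement TTCAAA, and CCAAT or its reverse complement ATTGG. Cdc20 and Ube2c were among the members with large differences between mature cells and stem cells, Top2a, Mki67 and Kif11 were among those that differed most in progenitor crypts, and Ccnb1, cyclin B1, holds CCAAT in its window but not TTTGAA. The regions are chr4:118437344-118437493 (Cdc20, minus strand), chr2:164769779-164769928 (Ube2c, plus strand), chr19:37376232-37376381 (Kif11, plus strand), chr11:99024190-99024339 (Top2a, minus strand), chr7:135716380-135716529 (Mki67, minus strand) and chr13:100786487-100786636 (Ccnb1, minus strand).
Cdc20: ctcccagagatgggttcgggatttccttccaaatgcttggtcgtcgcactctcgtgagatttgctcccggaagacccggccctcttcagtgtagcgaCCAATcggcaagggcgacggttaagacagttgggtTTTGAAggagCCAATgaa
Ube2c: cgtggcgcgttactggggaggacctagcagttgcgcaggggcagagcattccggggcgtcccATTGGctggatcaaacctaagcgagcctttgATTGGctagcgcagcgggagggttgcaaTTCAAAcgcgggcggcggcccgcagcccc
Kif11: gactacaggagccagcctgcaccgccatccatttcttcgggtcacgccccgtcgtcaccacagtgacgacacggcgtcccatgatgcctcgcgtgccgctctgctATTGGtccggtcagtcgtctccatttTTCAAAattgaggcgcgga
Top2a: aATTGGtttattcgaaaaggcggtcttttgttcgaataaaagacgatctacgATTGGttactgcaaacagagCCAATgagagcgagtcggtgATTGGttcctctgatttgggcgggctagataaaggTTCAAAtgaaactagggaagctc
Mki67: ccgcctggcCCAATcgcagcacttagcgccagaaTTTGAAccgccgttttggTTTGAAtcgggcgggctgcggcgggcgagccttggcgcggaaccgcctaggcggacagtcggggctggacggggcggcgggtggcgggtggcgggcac
Ccnb1: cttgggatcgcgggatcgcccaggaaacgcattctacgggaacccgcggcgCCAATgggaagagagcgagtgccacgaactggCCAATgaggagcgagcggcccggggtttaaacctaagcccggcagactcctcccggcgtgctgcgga

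The summed level of the 39 genes spread widely between groups. It was 387 and 457 CPM in goblet cells, 1420 and 1430 CPM in enteroendocrine cells, 1960 and 2450 CPM in Paneth cells and 2020 to 2340 CPM in Bmi1-GFP cells. It was 2500 and 3110 CPM in DT-treated and 2390 and 2570 CPM in control CD274+CD69+ cells. The crypt and Lgr5-GFP groups stood above these, with 3250 and 4140 CPM in Rbpj crypts, 3480 and 4960 CPM in DBZ crypts, 3280 and 4030 CPM in enterocyte progenitor crypts, 3300 and 3450 CPM in Lgr5-GFP-DTR cells and 3330 to 3450 CPM in Lgr5-GFP-Cre cells. As a share of the Lgr5-GFP-Cre mean, goblet cells held 12.4%, enteroendocrine cells 41.8%, Paneth cells 65% and Bmi1-GFP cells 65.3%. Paneth libraries overlapped in this sum with Bmi1-GFP and with control CD274+CD69+ libraries, as did the 2 CD274+CD69+ groups with each other, the 3 kinds of crypts with each other, and the 2 Lgr5-GFP lines with each other, with Rbpj crypts and with enterocyte progenitor crypts. In these bulk samples, fewer dividing cells and less mitotic RNA per cell cannot be told apart.

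**Figure D1:**
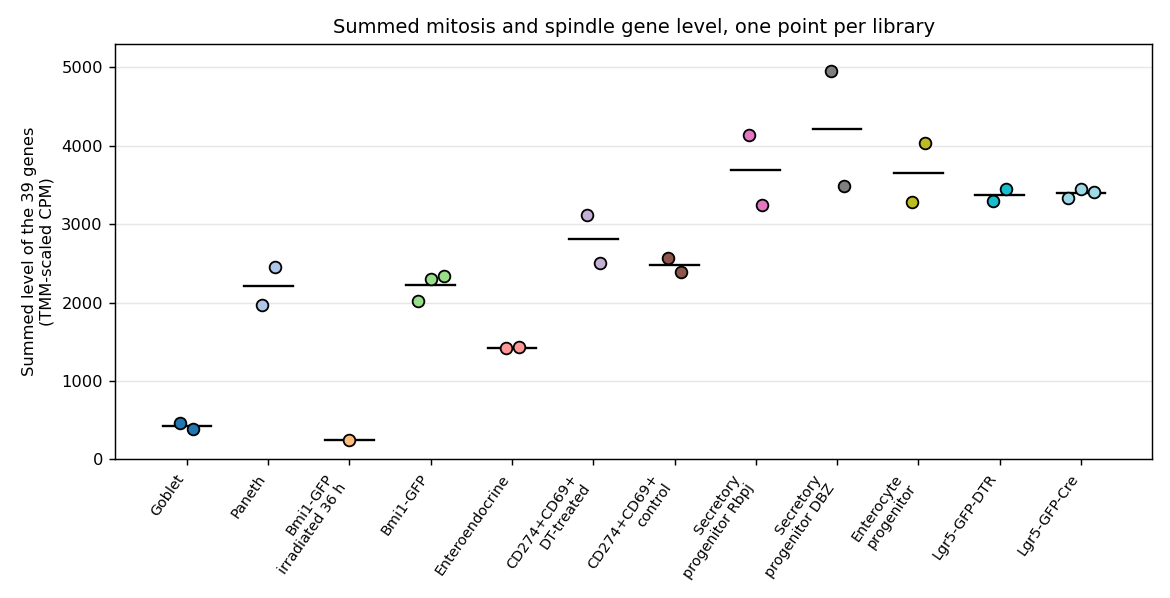
Summed level of the 39 mitosis and spindle genes in TMM-scaled CPM on the vertical axis, with 1 point per library and a bar at the mean of each group on the horizontal axis. Goblet libraries stand at 387 and 457 CPM and the irradiated library at 242 CPM, while Lgr5-GFP-Cre libraries lie between 3330 and 3450 CPM.

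Among the 11 groups with replicates, the goblet mean was the lowest for all 39 genes. The highest mean was in DBZ crypts for 14 genes, in Rbpj crypts for 10, in Lgr5-GFP-Cre cells for 7, in Lgr5-GFP-DTR cells for 4, and in enterocyte progenitor crypts and DT-treated cells for 2 each. With goblet cells left out, enteroendocrine cells had the lowest mean for 34 of 39 genes. Between the 10 remaining groups the ratio of highest to lowest mean ran from 1.82 for Ttk, the checkpoint kinase MPS1, to 6.97 for Mki67, which encodes the Ki-67 protein that coats mitotic chromosomes.

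Goblet cells had less of every mitotic gene than Lgr5-GFP-Cre stem cells. All 39 were called lower and 0 higher, by edgeR's quasi-likelihood test at a Benjamini-Hochberg adjusted p below 0.05, in a comparison in which 35.4% of all genes tested were called lower and 34.4% higher. The median log2 fold change of the 39 was -3.36, against 0 for all genes. The 5 cyclin and CDK1 genes had a median of -4.36, the 3 anaphase genes -4.22, the 7 kinetochore genes -3.16 and the 6 spindle motor genes -2.73.

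Cdc20, the activator of the anaphase-promoting complex, stood at 6.56 and 8.45 CPM in goblet cells, against 244, 277 and 242 CPM in Lgr5-GFP-Cre cells. Cenpa, the histone H3 variant that marks centromeres, stood at 2.64 and 5.15 CPM in goblet cells, against 154, 117 and 149 CPM in Lgr5-GFP-Cre cells. Both goblet libraries lay far below every stem cell library for both genes. The fitted log2 fold changes were -5.32 for Cdc20 and -5.40 for Cenpa (SE 0.33, adjusted p = 1.35e-10), and the next largest were those of Aurkb, the kinase of the chromosomal passenger complex (-5.06), Spc24, a subunit of the NDC80 kinetochore complex (-5.01), and Ccnb1 (-4.47).

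The smallest differences in goblet cells were those of Mki67 (-0.95), Kif4, a chromosome-bound kinesin (-1.12), and Top2a, the topoisomerase that untangles sister chromatids (-1.83). Mki67 stood at 70.3 and 47.0 CPM in goblet cells, against 87.7, 105 and 93.9 CPM in Lgr5-GFP-Cre cells. The groups did not overlap, but Mki67 made up 15.4% and 12.1% of the summed mitotic level in goblet libraries, against 2.63%, 3.06% and 2.75% in Lgr5-GFP-Cre libraries. Cdc20 moved the other way, with 1.44% and 2.18% of the sum in goblet libraries against 7.09 to 8.04% in Lgr5-GFP-Cre libraries.

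The same direction was found against the other 2 populations that goblet cells were compared with. Against DBZ crypts, all 39 genes were lower (30.1% of all genes were) with a median log2 fold change of -3.75, led by Aurkb (-5.20), Cdc20 (-4.99), Cenpa (-4.89), Ccnb1 (-4.85) and Cdk1 (-4.26). Goblet and DBZ samples differ in time after DBZ, in genotype and in sorting. Against control CD274+CD69+ cells, sorted on the same antigens, all 39 were lower (29.5% of all genes were) with a median of -2.93, led by Cdc20 (-4.28), Cenpa (-4.18), Aurkb (-4.16), Espl1, the separase that cuts cohesin (-4.12), and Ccnb1 (-3.85). These comparisons share the goblet libraries.

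Goblet libraries carried markers of absorptive cells at a summed level above that of goblet markers. Of 9 goblet markers 8 were called higher (median log2 fold change 2.46), with sums of 69735 and 113580 CPM in goblet cells, against 2098 to 4083 CPM in Lgr5-GFP-Cre cells. The summed level of 11 enterocyte markers was 118675 to 130098 CPM in goblet cells, against 3566 to 5959 CPM in Lgr5-GFP-Cre cells, and 11 of 11 were called higher (median 4.18). No enterocyte or stem cell marker was at 0 in every library of a group. Of 10 stem cell markers 8 were called lower, with sums of 210 to 270 CPM in goblet cells, against 6604 to 9108 CPM in Lgr5-GFP-Cre cells. Of 13 enteroendocrine markers 12 were higher and 1 lower, with sums of 2956 and 3340 CPM in goblet cells, against 299 to 333 CPM. Also higher were 11 of 15 immune and 5 of 9 tuft cell markers, while of 8 Paneth cell markers 6 were lower and 1 higher. The part of enterocyte or other cell content in the mitotic gene levels was not tested.

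**Figure D2:**
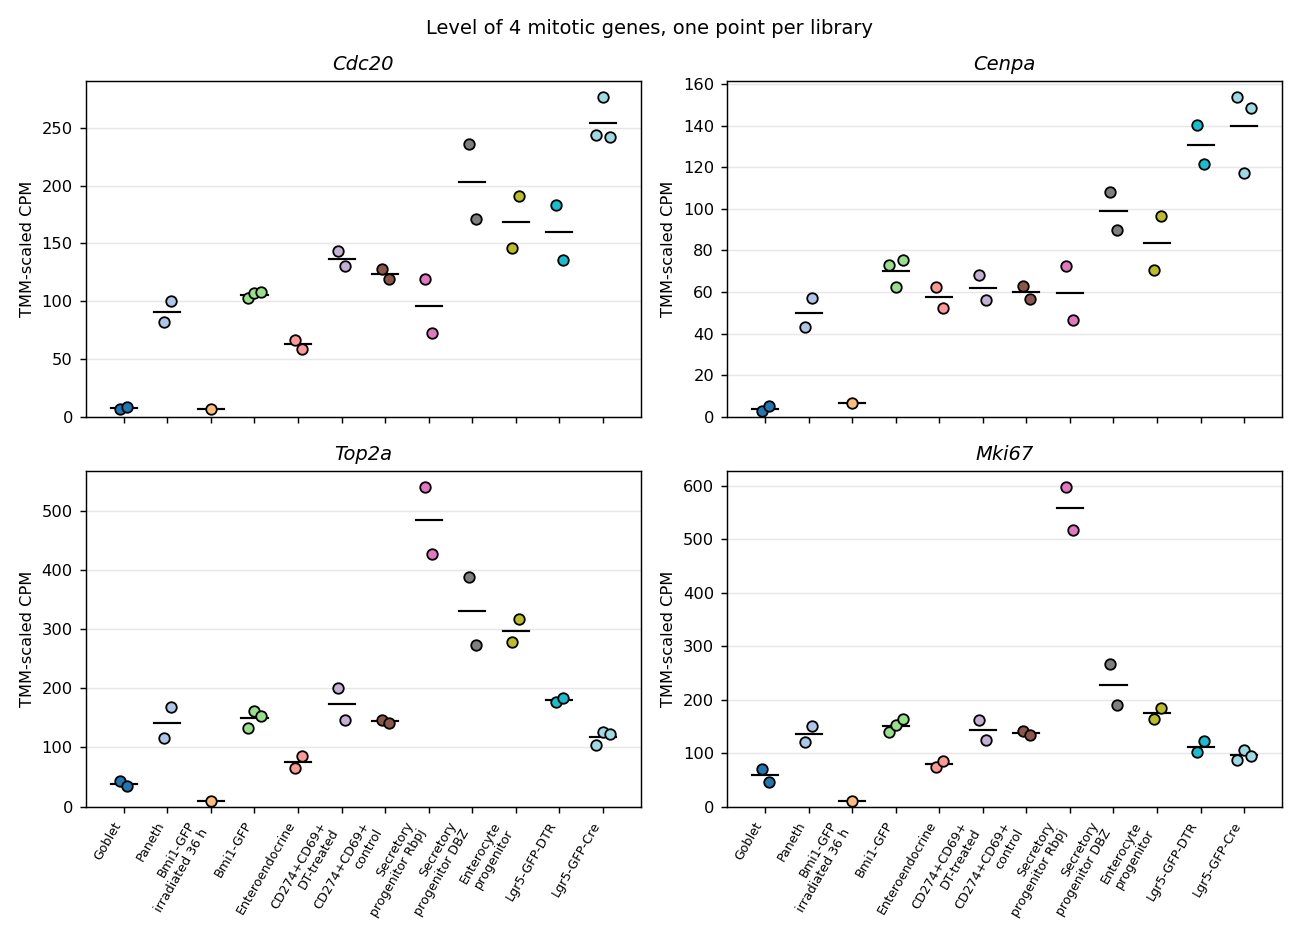
Levels of Cdc20, Cenpa, Top2a and Mki67 in TMM-scaled CPM, with 1 point per library and a bar at the group mean; vertical axes start at 0. The means of Cdc20 and Cenpa are highest in Lgr5-GFP-Cre cells, with 3 Cdc20 values from 242 to 277 CPM, while those of Top2a and Mki67 are highest in Rbpj crypts, where Mki67 stands at 518 and 598 CPM.

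The single irradiated Bmi1-GFP library, 36 h after 10 Gy, had less of all 39 genes than the unirradiated Bmi1-GFP cells. With 1 library there is no replicate check and no test; a gene counted as above or below the 3 unirradiated libraries when a gap of over 1 (log2) separated it from the nearest one. By that measure 39 of 39 were below, where 18.4% of all genes were below and 12.9% above. The median log2 difference of the 39 was -3.16, against -0.10 for all genes.

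Cdc25c, the phosphatase that switches CDK1 on, showed the largest difference, with 0.432 CPM in the irradiated library from 7 counts, against 10.5 to 12.2 CPM in unirradiated cells. Nuf2 (0.99 CPM against 17.9 to 24.0 CPM), a kinetochore protein, and Cenpe (2.71 CPM against 46.4 to 58.8 CPM), a kinetochore kinesin, followed with log2 differences of -4.32 and -4.20. Ect2, the exchange factor that starts the cleavage furrow, differed least, with 15 CPM in the irradiated library, against 35.7 to 41.7 CPM. Mki67 stood at 9.80 CPM after irradiation, against 139 to 163 CPM, and Top2a at 9.86 CPM, against 133 to 162 CPM.

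Markers of other cells moved in the same library. All 11 enterocyte markers were above the range, with a sum of 133566 CPM in the irradiated library, against 7401 to 19942 CPM in unirradiated cells, and 7 of 10 stem cell markers were below it, with a sum of 214 CPM against 1288 to 2005 CPM. Below it too were 9 of 13 enteroendocrine markers, with a sum of 2679 CPM in the irradiated library, against 8636 to 16197 CPM, 8 of 9 tuft cell markers, with a sum of 51.0 CPM, against 195 to 502 CPM, and 12 of 15 immune markers, with a sum of 285 CPM, against 1080 to 2531 CPM. Of 9 goblet markers 4 were above the range and 1, Retnlb, below it. Their sum was 16084.5 CPM in the irradiated library, against 3784 to 6473 CPM. Cd79a, Csf2rb, Igj, Il1b and Mcpt1 of the immune list and Retnlb were at 0 in the irradiated library. Mcpt1 was at 0 in the unirradiated libraries too. Csf2rb (0.0879 to 0.453 CPM) and Il1b (0.0503 to 1.92 CPM) were near 0 there. The part of all these markers' cells in the mitotic gene difference was not tested. Other cell cycle genes were also low: 63 of 83 other mitotic genes and 18 of 29 genes of G1 and S phase were below the range.

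**Figure D3:**
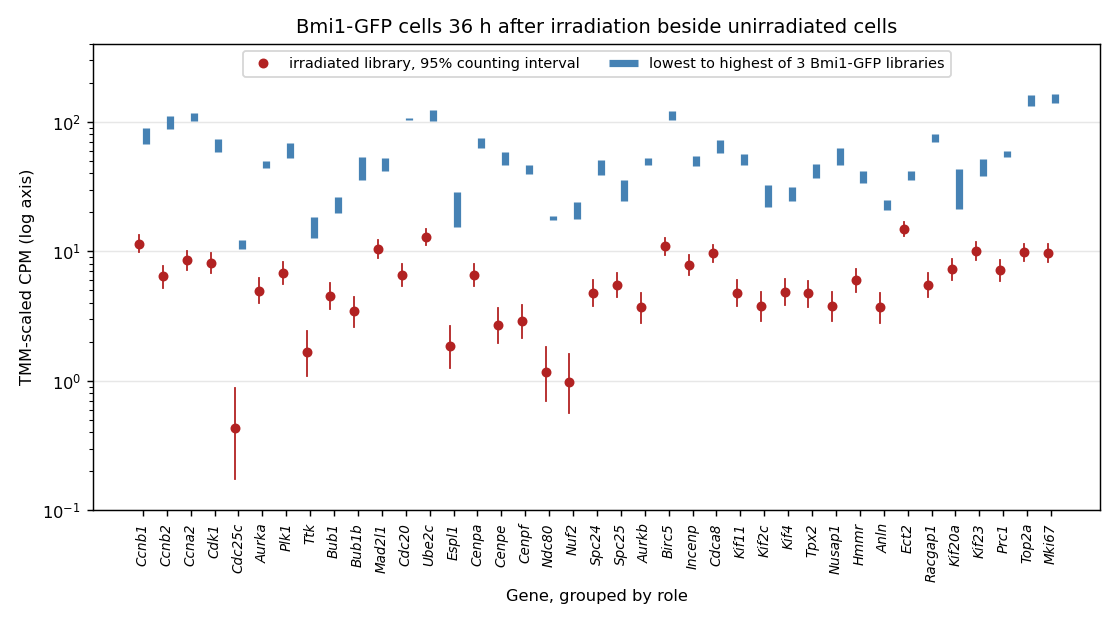
Level of each of the 39 genes in TMM-scaled CPM on a log axis, with the irradiated Bmi1-GFP library as a point with its 95% Poisson counting interval and the 3 unirradiated Bmi1-GFP libraries as a bar from lowest to highest. All 39 points lie below their bars, from Cdc25c at 0.432 CPM to Ect2 at 15 CPM.

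Bmi1-GFP cells had lower levels of many mitotic genes than Lgr5-GFP-Cre stem cells, and a higher level of 1. Of the 39, 23 were called lower (22.5% of all genes were), 1 higher (27.9%) and 15 did not pass, with a median log2 fold change of -0.64, against 0.09 for all genes. All 5 cyclin and CDK1 genes and all 4 genes of the chromosomal passenger complex, which corrects faulty attachments, were lower, as were 4 of 6 kinase and checkpoint genes. Only 2 of 6 spindle motor genes and 2 of 6 cytokinesis genes were.

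Cdc20 showed the largest change, with 103, 107 and 108 CPM in Bmi1-GFP cells, against 244, 277 and 242 CPM in Lgr5-GFP-Cre cells. The 3 Bmi1-GFP values lay close together and well under the lowest stem cell value (log2 fold change -1.29, SE 0.19, adjusted p = 4.18e-05). It was followed by the polo-like kinase Plk1 (-1.22), Cdk1 (-1.18), Ube2c, the ubiquitin-conjugating enzyme of the anaphase-promoting complex (-1.17), and Cdca8, the passenger protein borealin (-1.15). Mki67 went the other way, with 139, 152 and 163 CPM in Bmi1-GFP cells, against 87.7, 105 and 93.9 CPM in Lgr5-GFP-Cre cells. All 3 Bmi1-GFP values were higher than every stem cell value (log2 fold change 0.64, SE 0.17, adjusted p = 0.00489). Top2a, the most expressed gene that did not pass, had a log2 fold change of 0.33 (adjusted p = 0.138).

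Bmi1-GFP libraries differed from Lgr5-GFP-Cre libraries in cell markers too. Of 13 enteroendocrine markers 12 were higher, with sums of 8636 to 16197 CPM in Bmi1-GFP cells, against 299 to 333 CPM in Lgr5-GFP-Cre cells. All 10 stem cell markers were lower, with sums of 1288 to 2005 CPM in Bmi1-GFP cells, against 6604 to 9108 CPM. Of 15 immune cell markers 13 were higher, with sums of 1080 to 2531 CPM in Bmi1-GFP cells, against 25.7 to 47.7 CPM; Mcpt1, of mast cells, was at 0 in every Bmi1-GFP library, and Il1b and Csf2rb, of myeloid cells, in every Lgr5-GFP-Cre library. Their part in the mitotic gene differences was not tested.

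Control CD274+CD69+ cells were higher than Lgr5-GFP-Cre cells for some mitotic genes and lower for others. Of the 39 genes, 15 were lower (21.3% of all genes were), 6 higher (24%) and 18 did not pass, with a median of -0.28, against 0 for all genes. The lower genes were led by Spc24 (-1.44), Cdk1 (-1.43), Ube2c (-1.32), Cenpa (-1.23) and Spc25, also of the NDC80 complex (-1.12). The higher ones were Espl1 (0.76), the checkpoint kinase Bub1 (0.71), Anln, the actin-binding anillin of the cleavage furrow (0.69), Kif11, the motor that separates spindle poles (0.64), Kif4 (0.56) and Mki67 (0.53). No spindle motor or cytokinesis gene was called lower. Ccna2, cyclin A2, was the most expressed gene that did not pass (-0.20, adjusted p = 0.435).

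Kif11 stood at 78.0 and 72.3 CPM in control CD274+CD69+ cells, against 44.5, 50.7 and 49.6 CPM in Lgr5-GFP-Cre cells, and Cdk1 at 56.7 and 52.8 CPM, against 183, 116 and 142 CPM. The groups overlapped for neither gene. The calls in this comparison rested on few libraries: 8 of the 39 passed without control replicate 2, 11 without control replicate 1 and 13 without Lgr5-GFP-Cre replicate 3, and 0 were higher without control replicate 1, control replicate 2 or Lgr5-GFP-Cre replicate 1, and 1 without Lgr5-GFP-Cre replicate 3. Control replicate 1 was labelled as TruSeq and replicate 2 as SMART-Seq, and the 2 gave Mki67 levels of 141 and 135 CPM. Of 10 stem cell markers 8 were lower, with sums of 1692 and 1733 CPM in control CD274+CD69+ cells, against 6604 to 9108 CPM in Lgr5-GFP-Cre cells; the part of stem cell content in the mitotic gene levels was not tested.

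Enteroendocrine cells had more mitotic genes called lower than any other group set against Lgr5-GFP-Cre cells except goblet cells. Of the 39 genes, 30 were lower (20.4% of all genes were) and 0 higher (25.5%), with a median of -0.97, against 0.04 for all genes; at an unadjusted p below 0.05, 32 were lower (24.1% of all genes were) and 0 higher (29%), and DESeq2 called 30 in all. The largest changes were those of Kif20a, a kinesin of the central spindle (-2.18), Kif2c, a kinesin that dismantles microtubules at kinetochores (-2.14), Ccnb1 (-2.07), Cdc20 (-1.97) and Cdca8 (-1.94). Ccnb1 stood at 31.1 and 43.2 CPM in enteroendocrine cells, against 149, 159 and 175 CPM in Lgr5-GFP-Cre cells. Both values lay under every stem cell value. Mki67, the most expressed gene that did not pass, stood at 74.3 and 85.9 CPM, against 87.7, 105 and 93.9 CPM (log2 fold change -0.20, adjusted p = 0.404). All 13 enteroendocrine markers were higher, with sums of 14487 and 27010 CPM in enteroendocrine cells, against 299 to 333 CPM in Lgr5-GFP-Cre cells. All 9 tuft cell markers were higher too, with sums of 717 and 3881 CPM, against 16.5 to 27.1 CPM. Of 9 goblet markers 7 were higher, and of 15 immune markers 11 were higher and 2 lower. Of 8 Paneth cell markers 2 were higher and 1 lower, with sums of 52024 and 58558 CPM, against 40676 to 53511 CPM. Stem cell markers were lower for 7 of 10, with sums of 1615 and 1780 CPM, against 6604 to 9108 CPM. The part of all these markers' cells in the mitotic gene levels was not tested.

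Paneth cells are post-mitotic neighbours of the stem cells. Against Lgr5-GFP-Cre cells, 17 of 39 genes were lower (19.1% of all genes were), 1 higher (21.6%) and 21 did not pass, with a median of -0.44, against 0.01 for all genes. None of the 6 spindle motor genes and 1 of 6 cytokinesis genes was called, namely Racgap1 (-0.56). The lower genes were led by Spc24 (-1.67), Cenpa (-1.51), Cdc20 (-1.50), Cdca8 (-1.44) and Plk1 (-1.42), and Mki67 was higher (0.49, adjusted p = 0.0467). Ccna2, the most expressed gene that did not pass, had a log2 fold change of -0.39 (adjusted p = 0.123).

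Cenpa stood at 42.9 and 57.0 CPM in Paneth cells, against 154, 117 and 149 CPM in Lgr5-GFP-Cre cells. The groups did not overlap. The Paneth libraries also held stem cell markers: their summed level was 3019 and 4234 CPM in Paneth cells, against 6604 to 9108 CPM in Lgr5-GFP-Cre cells, and 3 of 10 were called lower. The Lgr5 transcript itself averaged 96.4 CPM in Paneth cells and 78.4 CPM in Lgr5-GFP-Cre cells. The part of stem cells in the mitotic RNA of the Paneth libraries was not tested.

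**Figure D4:**
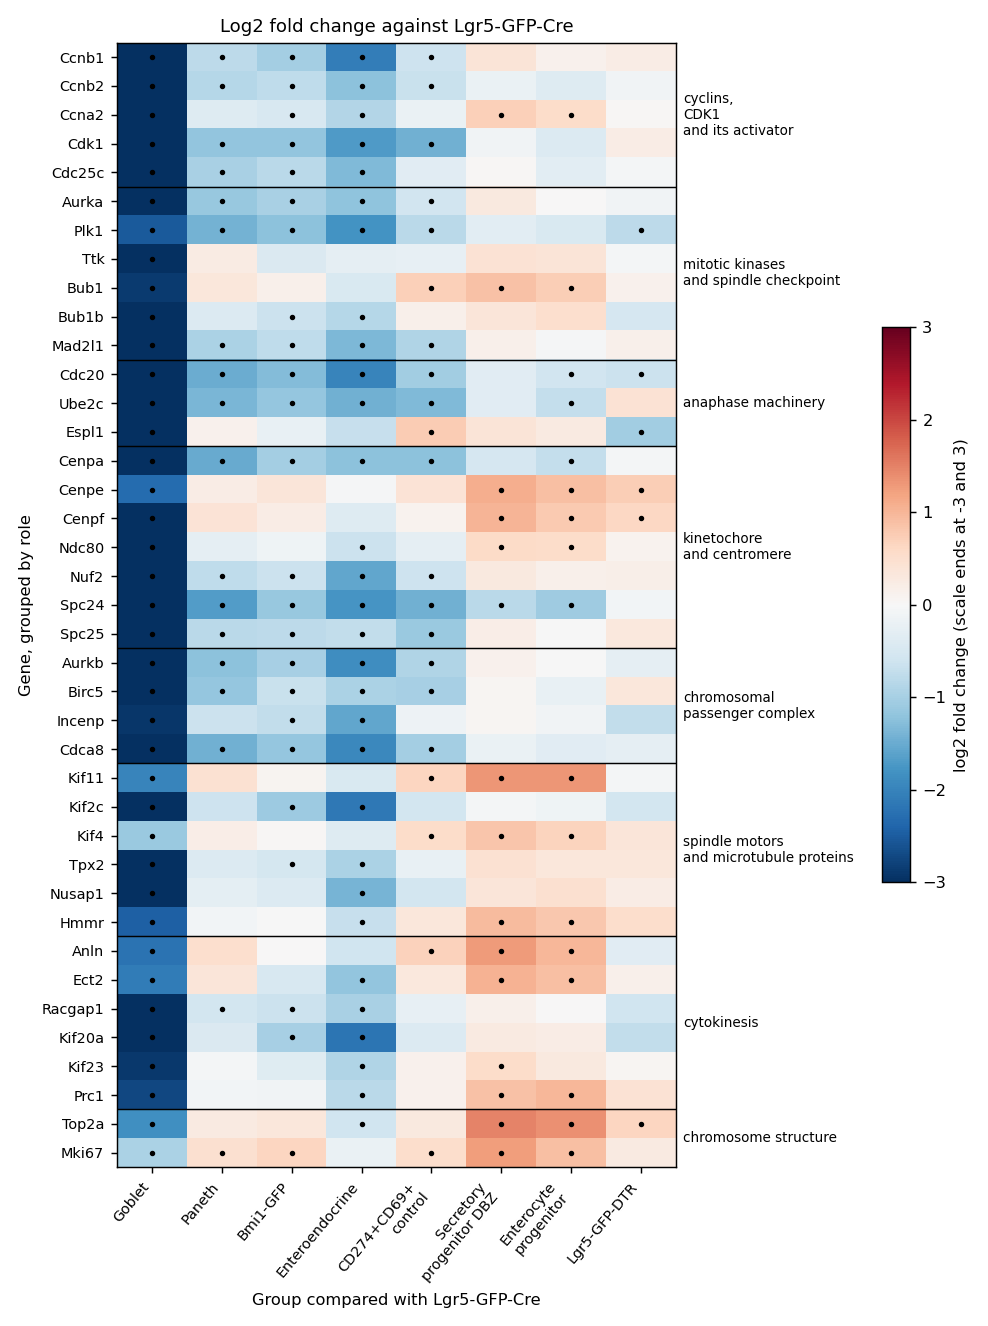
Log2 fold change of each of the 39 genes (rows, grouped by role) in 8 groups against Lgr5-GFP-Cre cells (columns); colours end at -3 and 3, and a dot marks a gene called at an adjusted p below 0.05. Goblet cells are lower for 39 of 39 genes, enteroendocrine cells for 30, Bmi1-GFP cells for 23, Paneth cells for 17 and control CD274+CD69+ cells for 15, while DBZ and enterocyte progenitor crypts are higher for 14 and 13.

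Bmi1-GFP and Paneth cells were also set directly against enteroendocrine cells. Against enteroendocrine cells, Bmi1-GFP cells were higher for 13 of 39 genes (12.6% of all genes were) and lower for 0 (12.1%), with a median of 0.58, led by Kif20a (1.19), Kif2c (1.06), Ccnb1 (1.05), Nusap1, a spindle-associated protein (0.97), and Top2a (0.93). At an unadjusted p below 0.05, 24 were higher (19.2% of all genes were) and 0 lower (19.3%), DESeq2 called 17, and a fit of these groups alone called 20. Bmi1-GFP cells held Top2a at 133, 162 and 153 CPM, against 64.5 and 85.5 CPM in enteroendocrine cells, without overlap. No gene passed without enteroendocrine replicate 1. Cell markers also differed: 10 of 11 enterocyte markers were higher, with sums of 7401 to 19942 CPM in Bmi1-GFP cells, against 2562 and 3302 CPM in enteroendocrine cells, and 7 of 8 Paneth cell markers were lower, with sums of 6875 to 10400 CPM, against 52024 and 58558 CPM. Of 9 tuft cell markers 6 were lower, with sums of 195 to 502 CPM in Bmi1-GFP cells, against 717 and 3881 CPM, and of 15 immune markers 7 were higher and 4 lower, with Mcpt1 at 0 in Bmi1-GFP cells and Cd8a and Cd96 at 0 in enteroendocrine cells. The part of these markers' cells was not tested. Ube2c, the most expressed gene that did not pass, had a log2 fold change of 0.28 (adjusted p = 0.46).

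Paneth cells were higher than enteroendocrine cells for 15 of 39 genes (14% of all genes were) and lower for 0 (15.4%), with a median of 0.56. All 13 enteroendocrine markers were lower in Paneth cells, and their part was not tested. The largest changes were those of Kif20a (1.74), Ect2 (1.54), Kif2c (1.52), Ccnb1 (1.29) and Nusap1 (1.10), and 4 of 6 cytokinesis genes were called. Kif20a stood at 48.0 and 48.2 CPM in Paneth cells, against 10.0 and 17.5 CPM in enteroendocrine cells, so the groups did not overlap. The count was 4 without enteroendocrine replicate 1 and 5 without Paneth replicate 2. At an unadjusted p below 0.05, 22 were higher (20.3% of all genes were) and 0 lower (22.2%), DESeq2 called 17, and a fit of these groups alone called 5. Ccna2 did not pass (0.49, adjusted p = 0.0903).

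Bmi1-GFP cells and control CD274+CD69+ cells differed for 3 genes. Espl1 (-0.97, adjusted p = 0.0195), Ect2 (-0.81, adjusted p = 0.0447) and the checkpoint kinase Bub1b (-0.79, adjusted p = 0.0296) were lower in Bmi1-GFP cells, where 9.24% of all genes were lower, and 0 were higher (9.72%). At an unadjusted p below 0.05, 9 were lower (16.5% of all genes were) and 0 higher (16.1%), DESeq2 called 2, and a fit of these groups alone called 12. Bmi1-GFP cells held Ect2 at 38.0, 35.7 and 41.7 CPM, against 69.4 and 63.2 CPM in control CD274+CD69+ cells, without overlap. The 3 calls were lost without either CD274+CD69+ control replicate, without Bmi1-GFP replicate 1 and without Bmi1-GFP replicate 3. Top2a, the most expressed gene that did not pass, had a log2 fold change of 0.03. Of 13 enteroendocrine markers 12, of 9 tuft cell markers 9 and of 15 immune markers 11 were higher in Bmi1-GFP cells, and their part was not tested.

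The 2 Lgr5-GFP stem cell lines had nearly the same summed mitotic level, and 33 of the 39 genes did not pass between them. In Lgr5-GFP-DTR cells 3 were higher (9.49% of all genes were) and 3 lower (11.1%), shares below those of all genes, with a median of 0.07, against -0.04 for all genes. A fit of these 2 groups alone called 0 of the 39. The higher ones were Cenpe (0.74, adjusted p = 0.0105), Top2a (0.65, adjusted p = 0.0294) and Cenpf, a kinetochore protein of the fibrous corona (0.61, adjusted p = 0.0359). The lower ones were Espl1 (-1.05, adjusted p = 0.0187), Plk1 (-0.79, adjusted p = 0.033) and Cdc20 (-0.64, adjusted p = 0.0427).

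Espl1 stood at 9.38 and 13.1 CPM in Lgr5-GFP-DTR cells, against 19.0, 26.4 and 26.3 CPM in Lgr5-GFP-Cre cells, and Cenpe at 72.9 and 57.2 CPM, against 33.0, 43.2 and 43.4 CPM. The groups did not overlap for either gene. Only 1 gene passed without Lgr5-GFP-Cre replicate 2 and 3 passed without Lgr5-GFP-DTR replicate 2. Ube2c, the most expressed gene that did not pass, ranged widely within Lgr5-GFP-Cre, at 358 and 302 CPM in Lgr5-GFP-DTR cells, against 328, 174 and 246 CPM. Of 8 Paneth cell markers 7 were higher in Lgr5-GFP-DTR libraries, with sums of 157978 to 218991 CPM, against 40676 to 53511 CPM in Lgr5-GFP-Cre libraries. All 9 tuft cell markers were higher (median log2 fold change 6.28), with sums of 920 and 1277 CPM in Lgr5-GFP-DTR libraries, against 16.5 to 27.1 CPM in Lgr5-GFP-Cre libraries. The part of either marker list in these differences was not tested.

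The mean summed mitotic level was 124% of the Lgr5-GFP-Cre mean in DBZ crypts and 108% in enterocyte progenitor crypts. In enterocyte progenitor crypts, against Lgr5-GFP-Cre cells, 13 genes were higher (22.2% of all genes were), 4 lower (17.2%) and 22 did not pass, with a median of 0.22, against 0 for all genes. The higher genes were led by Top2a (1.37), Kif11 (1.32), Anln (0.99), Prc1, which bundles the microtubules of the central spindle (0.99), and Cenpe (0.90). The lower ones were Spc24 (-1.06), Cenpa (-0.72), Ube2c (-0.71, with libraries that overlapped) and Cdc20 (-0.57). Ccnb1, the most expressed gene that did not pass, had a log2 fold change of 0.13. Without enterocyte progenitor replicate 1 the count of calls was 8, without Lgr5-GFP-Cre replicate 1 it was 10 and without replicate 3 it was 11.

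DBZ crypts gave values of the same kind against the same 3 Lgr5-GFP-Cre libraries. There 14 genes were higher (21% of all genes were), 1 lower (15.7%) and 24 did not pass, with a median of 0.36, against 0.03 for all genes. The higher genes were led by Top2a (1.49), Kif11 (1.32), Anln (1.27), Mki67 (1.25) and Cenpe (1.09), and Spc24 was lower (-0.80). Kif11 stood at 156 and 86.0 CPM in DBZ crypts and 112 and 123 CPM in enterocyte progenitor crypts, against 44.5, 50.7 and 49.6 CPM in Lgr5-GFP-Cre cells. All 4 crypt libraries were above every stem cell library. The 2 DBZ libraries lay apart, at 4960 and 3480 CPM of summed mitotic level, and without replicate 1 the count of calls was 8. Cdc20 did not pass (-0.33, adjusted p = 0.236). Of 10 stem cell markers, 10 were lower in DBZ crypts, with sums of 2228 and 680 CPM, and 9 in enterocyte progenitor crypts, with sums of 2686 and 3030 CPM, against 6604 to 9108 CPM in Lgr5-GFP-Cre cells. Of 15 immune markers 15 were higher in enterocyte progenitor crypts, with sums of 301 and 368 CPM, against 25.7 to 47.7 CPM. All 9 tuft cell markers were higher there too, with sums of 628 and 1272 CPM, against 16.5 to 27.1 CPM. Lower there were 8 of 8 Paneth, 8 of 9 goblet and 12 of 13 enteroendocrine markers. In DBZ crypts 6 of 9 goblet, 4 of 9 tuft and 6 of 15 immune markers were higher, and 6 of 8 Paneth markers lower. The part of all these markers' cells in the mitotic gene levels was not tested.

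Between DBZ and enterocyte progenitor crypts, labelled as secretory and absorptive precursors, no mitotic gene was called. By edgeR 0 of 39 passed (2.46% of all genes did), 0 had an unadjusted p below 0.05 (11.8% of all genes did) and DESeq2 called 0. The log2 fold changes ran from -0.15 to 0.36 with a median of 0.17, against -0.01 for all genes, and 36 of 39 were positive. Top2a stood at 388 and 274 CPM in DBZ crypts, against 278 and 317 CPM in enterocyte progenitor crypts (log2 fold change 0.12, adjusted p = 0.959). The groups overlapped for Top2a. Of the cell markers, 8 of 9 of goblet cells, 8 of 8 of Paneth cells and 13 of 13 of enteroendocrine cells were higher in DBZ crypts.

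Rbpj crypts were higher than both other kinds of crypts for Mki67 and lower than both for Ccnb1, Cdc20, Aurkb and Cdca8, while Top2a was called higher against enterocyte progenitor crypts but not against DBZ crypts. Mki67 stood at 598 and 518 CPM in Rbpj crypts, against 267 and 189 CPM in DBZ crypts and 164 and 185 CPM in enterocyte progenitor crypts. Top2a stood at 541 and 427 CPM in Rbpj crypts, against 388 and 274 CPM in DBZ crypts and 278 and 317 CPM in enterocyte progenitor crypts. Every Rbpj value was above every value of the other crypts for both genes. Against enterocyte progenitor crypts the log2 fold changes were 1.69 for Mki67 (SE 0.21, adjusted p = 1.38e-05) and 0.71 for Top2a (adjusted p = 0.0225), and against DBZ crypts 1.33 for Mki67 (adjusted p = 0.000178) and 0.59 for Top2a (adjusted p = 0.0591). Mki67 made up 14.4% and 15.9% of the summed mitotic level in Rbpj crypts, against 5.38% and 5.44% in DBZ crypts and 5% and 4.58% in enterocyte progenitor crypts.

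The counts that follow are over all 39 genes and so include Mki67 and Top2a. Against enterocyte progenitor crypts 2 genes were higher (15.1% of all genes were) and 4 lower (13%), both shares below those of all genes. The median was -0.21, against -0.02 for all genes. The lower ones were Ccnb1 (-0.92), Cdc20 (-0.79), Aurkb (-0.70) and Cdca8 (-0.70), and Ccna2 did not pass (-0.50, adjusted p = 0.0942). Against DBZ crypts 1 was higher (12.9%) and 10 lower (11.9%), with a median of -0.31, led by Ccnb1 (-1.18), Cdc20 (-1.03), Birc5, the passenger protein survivin (-1.01), Spc25 (-0.95) and the spindle pole kinase Aurka (-0.93); a fit of these 2 groups alone called 5 in all. Ccnb1 stood at 105 and 76.2 CPM in Rbpj crypts, against 247 and 176 CPM in DBZ crypts and 154 and 192 CPM in enterocyte progenitor crypts, with no overlap.

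Of the cell markers, 9 of 9 of goblet cells, 8 of 8 of Paneth cells and 12 of 13 of enteroendocrine cells were higher in Rbpj than in enterocyte progenitor crypts, and their part was not tested. Both Rbpj libraries, and no other crypt library, were prepared with a TruSeq kit, so the kit and the Rbpj group cannot be told apart. In control CD274+CD69+ cells, with 1 library labelled for each kit, Mki67 took 5.50% of the summed mitotic level in the library labelled TruSeq. It took 5.63% in the library labelled SMART-Seq. Those 2 libraries differed less than any other replicate pair (chi-square per degree of freedom 4.23, against 27.6 to 194). The part of the kit in the Rbpj values was not tested. Against enterocyte progenitor crypts 1 gene was called without enterocyte progenitor replicate 2 and 2 without Rbpj replicate 2. Against DBZ crypts, 2 were called without Rbpj replicate 2 and 4 without DBZ replicate 1.

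Diphtheria toxin was not followed by a called change of any mitotic gene in CD274+CD69+ cells. Between DT-treated and control cells edgeR called 0 of 39 (0.175% of all genes), 0 had an unadjusted p below 0.05 (6.01% of all genes did) and DESeq2 called 0. The log2 fold changes ran from -0.12 to 0.40 with a median of 0.20, against 0.02 for all genes, and 35 of 39 were positive. Top2a stood at 201 and 146 CPM in DT-treated cells, against 147 and 141 CPM in control cells, and Mki67 at 161 and 124 CPM, against 141 and 135 CPM. The groups overlapped for both. Libraries did not overlap for 14 of 39 genes, where 55.9% of all genes did not. Without DT-treated replicate 1 the median was 0.02.

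Fold changes were also read against the genes' genomic spans. Spans run from 2.97 kb for Ube2c to 101 kb for Kif4, and 13 members fall into each of 3 span classes, with breaks at 14.4 and 31.4 kb. Among the shortest 13, 13 were lower in Bmi1-GFP cells, 11 in control CD274+CD69+ cells and 11 in Paneth cells, each against Lgr5-GFP-Cre cells, where 32.1%, 33.4% and 30.5% of all genes of that class were lower. Among the longest 13, 3, 1 and 1 were lower in those 3 comparisons, where 11.9%, 9.84% and 7.79% of all genes of that class were.

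The median log2 fold change of the longest, middle and shortest members was -0.01, -0.65 and -1 in Bmi1-GFP cells, 0.32, -0.25 and -0.91 in control CD274+CD69+ cells and 0.22, -0.56 and -1.17 in Paneth cells. All genes tested showed an ordering of the same direction, with medians of 0.46, -0.03 and -0.25, of 0.47, 0 and -0.43, and of 0.50, -0.02 and -0.39 in the same 3 comparisons. In enterocyte progenitor crypts the members' medians were 0.74, 0.02 and -0.22, against 0.44, 0 and -0.38 for all genes. In goblet cells they were -2.87, -3.36 and -4.22, against 0.76, -0.12 and -0.74 for all genes. Between DBZ and enterocyte progenitor crypts, the members' medians were 0.15, 0.17 and 0.21, without this order. In each comparison with Lgr5-GFP-Cre cells except that of Lgr5-GFP-DTR cells, where the medians of all genes were -0.04, -0.11 and 0, the longest class of all genes had the highest median. The part of span in the members' differences was not tested.

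**Figure D5:**
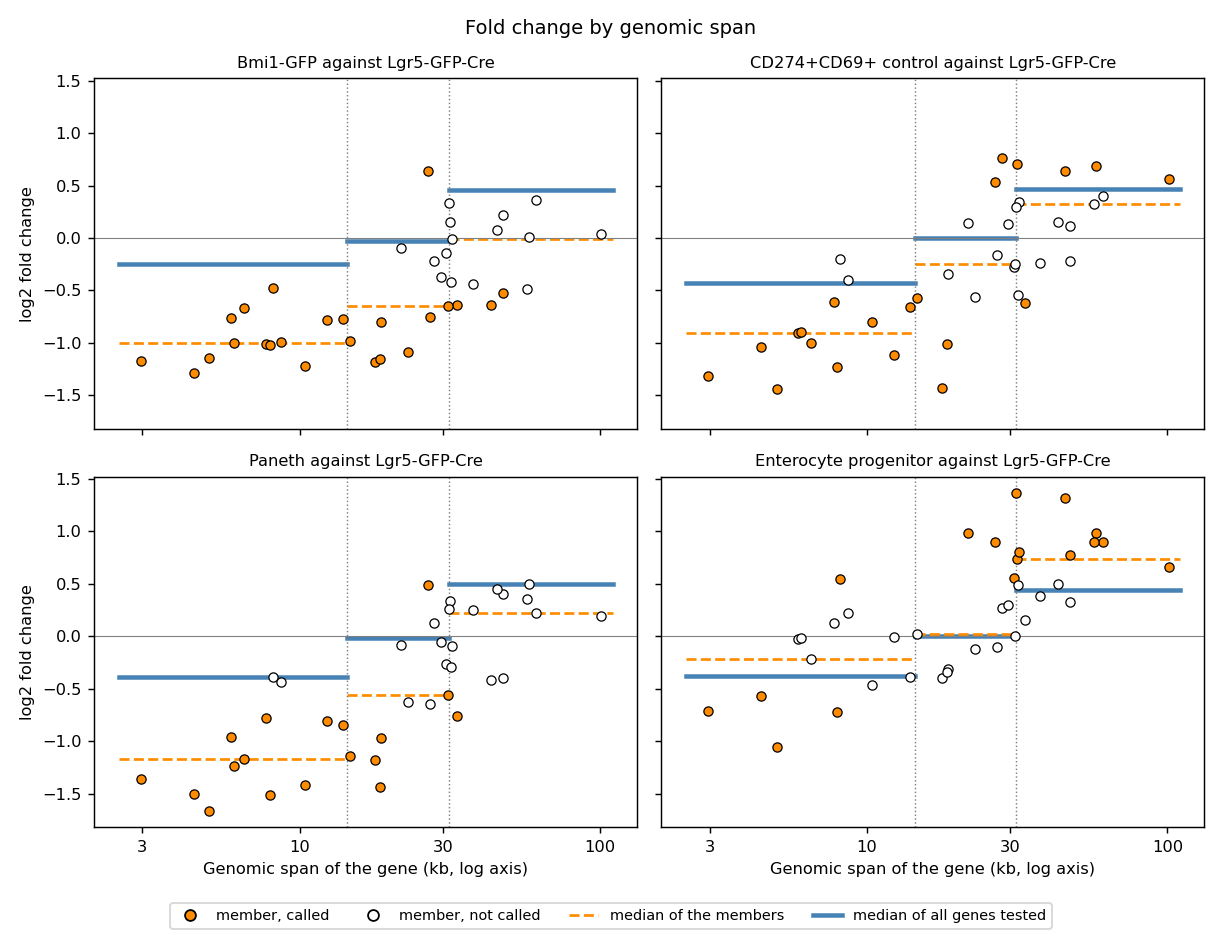
Log2 fold change of each of the 39 genes against its genomic span in kb (log axis) in 4 comparisons with Lgr5-GFP-Cre cells; filled points were called, dotted lines mark the breaks of the 3 span classes, dashed lines the members' median and solid lines the median of all genes tested in each class. In Paneth cells the members' median is 0.22 for the longest class and -1.17 for the shortest, and that of all genes is 0.50 and -0.39.

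Genes that prepare the cell for division were set beside the mitotic ones. Of 29 genes of G1 and S phase (replication licensing, nucleotide synthesis and the G1 cyclins), 28 were lower in goblet cells, 26 in each of Bmi1-GFP, enteroendocrine and Paneth cells and 23 in control CD274+CD69+ cells, each against Lgr5-GFP-Cre cells, and 0 were higher. Their medians were -3.64, -1.17, -1.37, -1.15 and -0.92 in that order. Of all genes tested, 35.4%, 22.5%, 20.4%, 19.1% and 21.3% were lower in the same order, and 34.4%, 27.9%, 25.5%, 21.6% and 24% were higher. Mcm2, a subunit of the replicative helicase, averaged 60.7 ± 17.2 CPM in Bmi1-GFP cells and 197 ± 24 CPM in Lgr5-GFP-Cre cells (SD, n = 3 each; log2 fold change -1.72, adjusted p = 7.28e-06). In Lgr5-GFP-DTR cells 11 of 29 were lower and 0 higher, shares to be read against 9.49% of all genes higher and 11.1% lower. In enterocyte progenitor crypts 4 of 29 were higher and 5 lower (22.2% and 17.2% of all genes were), and in DBZ crypts 3 higher and 6 lower (21% and 15.7%).

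A further 83 mitotic genes outside the 39 were counted in the same way. In goblet cells 75 were lower and 2 higher (median -3.02), in enteroendocrine cells 50 lower and 1 higher (-0.96), in Bmi1-GFP cells 45 lower and 2 higher (-0.69), in Paneth cells 33 lower and 5 higher (-0.59) and in control CD274+CD69+ cells 33 lower and 5 higher (-0.45), each against Lgr5-GFP-Cre cells. Of all genes tested, 35.4%, 20.4%, 22.5%, 19.1% and 21.3% were lower in that order, and 34.4%, 25.5%, 27.9%, 21.6% and 24% were higher. In enterocyte progenitor crypts 18 were higher and 10 lower, against 22.2% and 17.2% of all genes, and in DBZ crypts 22 were higher and 8 lower, against 21% and 15.7% of all genes. The mitotic kinesins Kifc1 (3.55) and Kif14 (1.78) were higher in Rbpj crypts than in enterocyte progenitor crypts. There 6 of the 83 were higher and 7 lower, against 15.1% and 13% of all genes. Kit and Rbpj group cannot be told apart in these values.

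Regulators of the cycle were read from lists of 21 transcription regulators and 7 CDK inhibitors, of which 6 were tested. In goblet cells, against Lgr5-GFP-Cre cells, 15 regulators were lower and 4 higher, where 35.4% of all genes were lower and 34.4% higher. Among the lower ones were E2f1, an activator of S phase genes (-5.21), and Mybl2, the B-Myb subunit that turns on mitotic promoters (-3.07). Foxm1, a forkhead factor of G2 and M genes, was lower too (-3.03). Rb1, the retinoblastoma repressor, was higher in goblet cells (3.83), in Paneth cells (2.58), in Bmi1-GFP cells (2.10) and in enteroendocrine cells (1.85). Its values in the other groups are not given here, so these groups are not set apart by it. The highest log2 fold change of any regulator was 2.73 in enterocyte progenitor crypts and 2.68 in DBZ crypts. It was 2.47 in control CD274+CD69+ cells and 1.11 in Lgr5-GFP-DTR cells. Foxm1 averaged 24.8 ± 1.06 CPM in Bmi1-GFP cells and 36 ± 9.69 CPM in Lgr5-GFP-Cre cells and did not pass (-0.55, adjusted p = 0.089).

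Of the 6 CDK inhibitors tested, 3 were higher than in Lgr5-GFP-Cre cells in goblet, enteroendocrine, Bmi1-GFP and Lgr5-GFP-DTR cells. In Paneth and control CD274+CD69+ cells and in enterocyte progenitor and DBZ crypts, 2 were higher. Lower were 2 in goblet and 2 in control CD274+CD69+ cells, 1 each in Paneth cells and these crypts, and 0 elsewhere. Of all genes, 9.49% to 34.4% were higher and 11.1% to 35.4% lower. Cdkn1a, which encodes the CDK inhibitor p21, was higher in all 8 groups compared with Lgr5-GFP-Cre cells. It averaged 710 ± 92.1 CPM in goblet cells, 423 ± 65.1 CPM in enteroendocrine cells, 249 ± 53.9 CPM in Bmi1-GFP cells and 139 ± 4.14 CPM in Paneth cells, against 54.3 ± 11 CPM in Lgr5-GFP-Cre cells (SD, n = 2 for each group but 3 for Bmi1-GFP and Lgr5-GFP-Cre). The log2 fold changes ran from 1.16 in enterocyte progenitor crypts to 3.47 in goblet cells. Cdkn1c, which encodes p57, was higher in enteroendocrine cells (4.45), in Bmi1-GFP cells (3.36) and in Lgr5-GFP-DTR cells (2.72). Cdkn1b, which encodes p27, was higher in Rbpj crypts than in enterocyte progenitor crypts (2.5) and DBZ crypts (2.48). Against enterocyte progenitor crypts 1 inhibitor was higher and 0 lower (15.1% and 13% of all genes were). Against DBZ crypts 1 was higher and 1 lower (12.9% and 11.9%). Only the Rbpj crypts were prepared with TruSeq, so kit and group cannot be told apart here either.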

How the data were processed

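The deposited table holds whole-number read counts per gene symbol, treated as raw counts because each library sums to a different total (11179085 to 27371108). Per the labels' protocols, 75 bp single-end reads were made with SMART-Seq v4 kits, or with TruSeq for both Rbpj libraries and replicate 1 of the control CD274+CD69+ cells. The submitters' processing notes name TopHat2 2.0.6, Bowtie2 and DESeq2, and the mm10 build; the sources used here name neither the counting program nor its use of strand. The labels call replicates biological but do not say that they came from separate mice, so p-values measure only the spread between these libraries. The 2 control CD274+CD69+ libraries differed by more than counting noise (chi-square per degree of freedom 4.23, against 27.6 to 194 for other replicate pairs) and were kept as 2.

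The counts went into edgeR 4.0.16 (R 4.3.3). The filter was filterByExpr (at least 10 counts, total of at least 15), the scaling was TMM, and a single quasi-likelihood fit covered 24 libraries in 11 groups (common dispersion 0.0714). Every adjusted p is from that edgeR model, with Benjamini-Hochberg adjustment over the 14837 genes tested, and a gene was called below 0.05. The irradiated library was set against 3 Bmi1-GFP libraries on log2 CPM with a prior count of 2, for genes at 1 CPM or more on either side, with no test. On simulated counts for Bmi1-GFP against Lgr5-GFP-Cre, with 14458 genes in the fit, 82.6% of genes changed by a log2 of 2 and 55.6% of those changed by 1 were called in the right direction. Only 92 genes were changed by 2 and 108 by 1, while in the data 27.9% of genes were called higher and 22.5% lower. The adjustment of p depends on how many genes change, so these shares need not hold for the reported comparison. Intervals for the irradiated library are exact Poisson at 95% and cover counting error only. Motif strings and spans were read from RefSeq tables of GRCm38.p6 (mm10); 94.3% of genes tested had a span. Alternatives were DESeq2 size factors, DESeq2 1.42.0, no filter, a replicate block, fits of the compared groups only and leaving out each library.

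The members, gene lists and comparisons were chosen with earlier results of these data known. Any member may be named; each comparison names up to 5 called genes per direction of largest change, those against the main direction, and the most expressed gene that did not pass. Genes of other lists named in the text were chosen after their values were seen. The other 24 of 49 samples were not analysed here.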

Additional observations from a re-analysis of the deposited data

How the results depend on the processing

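No called gene changed sign under the alternatives run. The members' median crossed 0 when 1 library was left out in Lgr5-GFP-DTR against Lgr5-GFP-Cre cells and in DBZ and Rbpj crypts, each against enterocyte progenitor crypts. Goblet cells kept 39 of 39 genes lower in all of their comparisons; with DESeq2 size factors, which shift the median of all genes by 0.22 in goblet cells against Lgr5-GFP-Cre cells, the members' median there was -3.12 (DESeq2's own test also -3.12), against DBZ crypts -3.47, and against control CD274+CD69+ cells -2.65 (DESeq2's test -2.66, compared groups only -2.82). Fits of the compared groups only called 0 members in Lgr5-GFP-DTR against Lgr5-GFP-Cre cells, 5 in Rbpj against DBZ crypts, 20 in Bmi1-GFP against enteroendocrine cells, 12 in Bmi1-GFP against control CD274+CD69+ cells and 5 in Paneth against enteroendocrine cells; the cause was not tested. Bmi1-GFP against control CD274+CD69+ cells gave 1 call with size factors.

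The labels do not say that a replicate number marks a shared mouse or day, and the numbers were not taken to pair samples. Residuals of same-numbered libraries correlated between -0.208 and 0.327; the highest was that of Paneth against enteroendocrine cells, where 2 pairs cannot show a pairing and a replicate block gave 13 calls. The block left 1 call in Bmi1-GFP against control CD274+CD69+ cells, and 22 of 296 member calls in all were lost under it, against 37 with the compared groups only, 12 with no filter, 7 with size factors and 2 with DESeq2. Crossing the numbers for Rbpj against enterocyte progenitor crypts, an alternative chosen after seeing the data, gave 5 calls.

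Leaving out 1 library at a time gave these ranges of members called and of their median log2 fold change. Against Lgr5-GFP-Cre cells they were 18 to 23 and -0.69 to -0.52 for Bmi1-GFP, 8 to 18 and -0.41 to -0.17 for control CD274+CD69+, 26 to 31 and -1.11 to -1.05 for enteroendocrine, 13 to 18 and -0.61 to -0.36 for Paneth, 39 and -3.63 to -3.05 for goblet, 1 to 6 and -0.09 to 0.21 for Lgr5-GFP-DTR, 8 to 16 and 0.06 to 0.32 for enterocyte progenitor and 8 to 15 and 0 to 0.63 for DBZ. They were 0 and -0.08 to 0.41 for DBZ against enterocyte progenitor crypts, 1 to 7 and -0.53 to 0.04 for Rbpj against enterocyte progenitor crypts, 2 to 12 and -0.61 to -0.07 for Rbpj against DBZ crypts, 39 and -4.02 to -3.22 for goblet cells against DBZ crypts, 0 and 0.02 to 0.34 for DT-treated against control cells and 39 and -3.14 to -2.87 for goblet against control CD274+CD69+ cells. They were 0 to 16 and 0.52 to 0.70 for Bmi1-GFP against enteroendocrine cells, 0 to 2 and -0.32 to -0.20 for Bmi1-GFP against control CD274+CD69+ cells and 4 to 15 and 0.43 to 0.62 for Paneth against enteroendocrine cells. A library left alone in its group was assumed to vary like the others. On simulated counts with 3 libraries a group, and far fewer changed genes than were called in the data, 55.6% of log2 changes of 1 were called. Smaller changes and 2 libraries a group were not simulated.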
